A study of Arabidopsis thaliana with 16 samples.

Results

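Expansins are secreted proteins that loosen the plant cell wall, so that a cell under turgor can enlarge. They act best at acid pH and break no covalent bond of the wall; the contacts between cellulose and xyloglucan are thought to be their target. The alpha expansins (EXPA) and beta expansins (EXPB) are the subfamilies with shown wall-loosening activity, whereas the expansin-like genes (EXLA and EXLB) share their structure without that activity having been shown. The 7 genes described here are 6 alpha expansins, EXPA4, EXPA7, EXPA8, EXPA9, EXPA15 and EXPA16, and 1 beta expansin, EXPB3. They were taken by name, each through the 1 array probe set annotated to that gene alone, and are 7 of 13356 genes with such a probe set. Their loci are AT2G39700 (EXPA4), AT1G12560 (EXPA7), AT2G40610 (EXPA8), AT5G02260 (EXPA9), AT2G03090 (EXPA15), AT3G55500 (EXPA16) and AT4G28250 (EXPB3). All tests were fitted across 22746 probe sets.

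All groups were Arabidopsis thaliana suspension cells (Landsberg erecta) shaken in the dark, in a medium with the synthetic auxin 2,4-D. On day 3 after sub-culture they received an inhibitor of cellulose synthesis, either TA (thaxtomin A, a toxin of potato scab bacteria) at 2 µM or IXB (isoxaben, a herbicide) at 100 nM, or methanol alone. The names thaxtomin A and isoxaben are general knowledge about the abbreviations. Every culture received 20 µL of methanol, RNA was taken after 6 h, and each of the 4 replicates per group pooled 2 flasks of 100 mL. One Affymetrix ATH1 array was made per replicate, 12 in all, and the 4 methanol arrays were processed once with the TA arrays and once with the IXB arrays. Replicates are biological by their labels, which name no parent culture, so p-values cover only the variation among these samples, which may be technical.

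Values are log2 RMA values, in which 1 unit is a doubling of signal and array-wide shifts have been removed. The median of a column lay between 4.757 and 4.851 for the TA set but between 5.204 and 5.302 for the IXB set, so each compound was compared with methanol within its own set and levels are not compared across sets. A gene counts as measured here, with a usable probe set, only where the annotation used names a probe set for that gene alone. Of the 22746 probe sets, 8730 had no gene name in it, so a gene not measured in this sense may still be on the array. Of the 9 written markers of dividing cells 0 had a usable probe set, and of 9 markers of green leaf cells 1 had one. That one, RCA, the activase of Rubisco, was listed as a gene that should be low in dark cultures. It stood at 9.13 ± 0.05 with methanol in the TA set (SD, n = 4), far above the column median of 4.774. This value went against that expectation, and the reason was not tested. With no other marker of these lists measured, the labelled cell type could not be checked further. In such bulk samples, fewer cells expressing a gene and less RNA per cell cannot be told apart.

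EXPB3 and EXPA4 gave bright signals in all 3 groups. EXPA4 stood at 10.35, 10.74, 10.50 and 10.40 on methanol replicates 1 to 4 of the TA set, a mean of 10.49 ± 0.17 (SD, n = 4). EXPB3 stood at 8.66, 8.97, 8.38 and 8.59 on the same arrays, a mean of 8.65 ± 0.25 (SD, n = 4). Replicate 2 was the highest methanol array for both genes. EXPA15 lay close to the column median, with methanol at 4.68 ± 0.07 (SD, n = 4) in the TA set. Its methanol mean in the other set was 5.11 ± 0.16 (SD, n = 4).

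The other 4 alpha expansins were dim, here meaning a mean log2 value under 5 in both sets. With methanol in the TA set EXPA7, a gene of root hair cells, was at 2.95 ± 0.21 and EXPA8 at 2.77 ± 0.17 (SD, n = 4). EXPA16 was at 2.70 ± 0.10 and EXPA9 at 2.50 ± 0.17 (SD, n = 4). Over all 16 columns the single values of these 4 genes ran from 2.147 (EXPA9 with TA) to 3.609 (EXPA7 with IXB). RMA compresses differences at such low signals, and no detection call comes with the values. EXPA18, the other root hair expansin, was dim as well, at 3.02 ± 0.14 with methanol in the TA set (SD, n = 4).

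**Figure D1:**
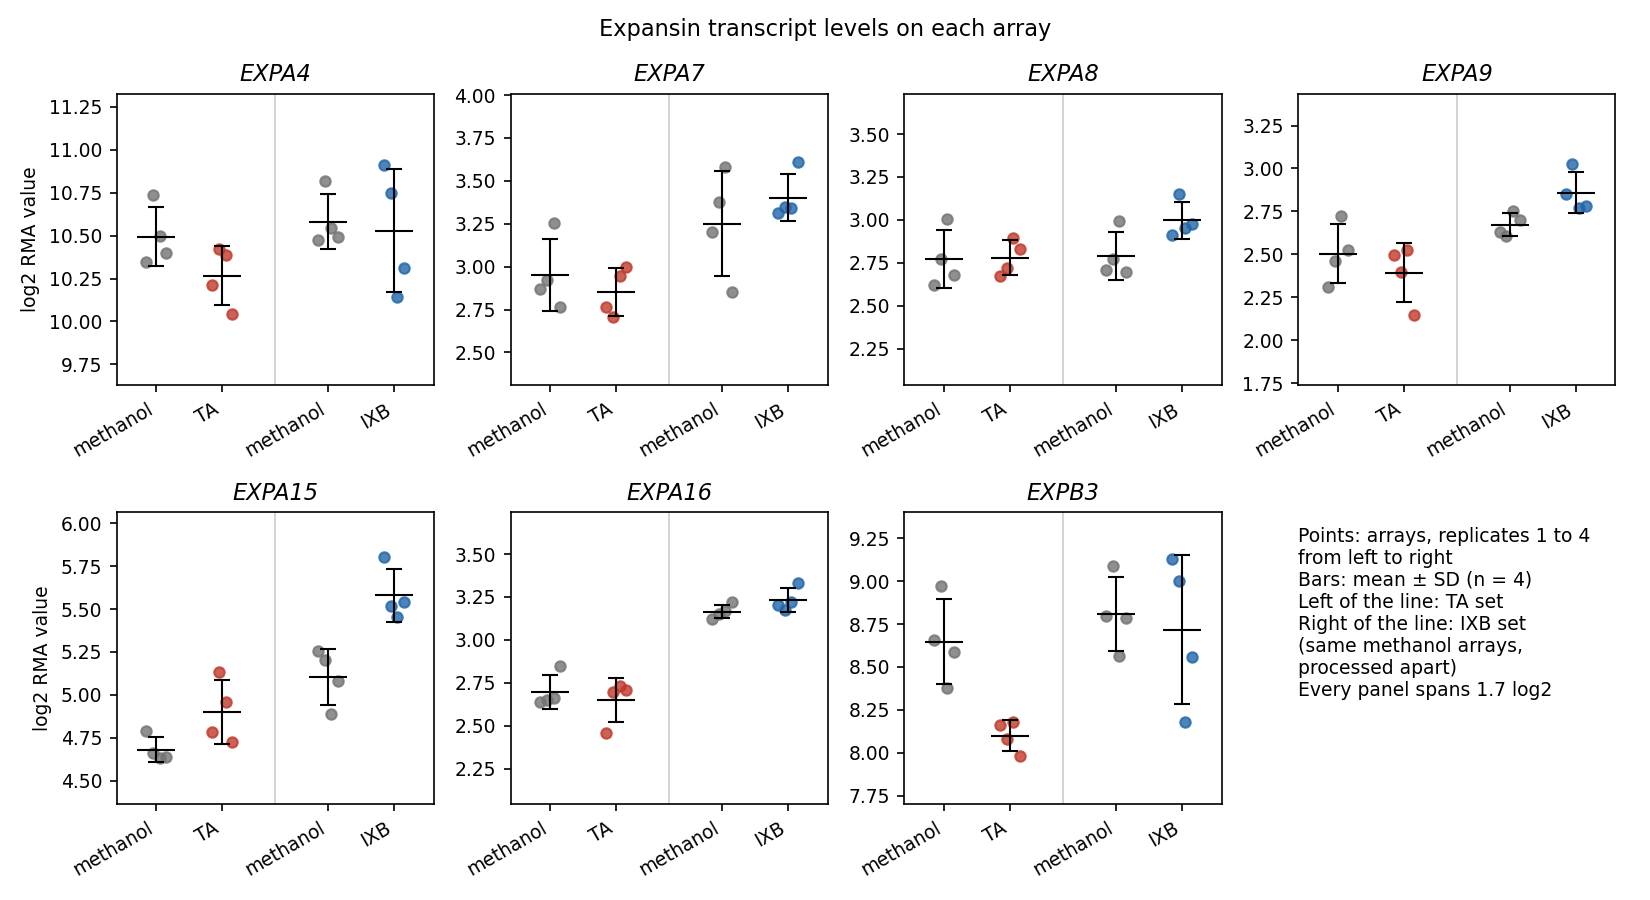
Log2 RMA values of the 7 expansin genes on each array, one panel per gene, with the TA set left and the IXB set right of the grey line; points are arrays and bars the mean ± SD (n = 4). The 4 EXPB3 values with TA lie below all 4 methanol values, the 4 EXPA15 values with IXB lie above all 4 methanol values, and EXPA7, EXPA8, EXPA9 and EXPA16 stay under 3.7.

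The first comparison asked what TA did to these transcripts. EXPB3 fell by 31.7%, and it was the only one of the 7 to pass the test. Its values with TA were 8.16, 8.08, 8.18 and 7.98, against 8.66, 8.97, 8.38 and 8.59 with methanol. All 4 TA arrays lay below all 4 methanol arrays, and they lay closer together, with an SD of 0.09 against 0.25. The log2 change was -0.55 (SE 0.11, 95% interval -0.79 to -0.31), with an adjusted p of 0.00668 in limma, a linear model fitted to all probe sets.

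None of the alpha expansins passed with TA. EXPA15 was at 4.79, 5.14, 4.96 and 4.72 with TA and at 4.79, 4.66, 4.63 and 4.64 with methanol. Its 2 highest TA arrays, replicates 2 and 3, stood above every methanol array and the other 2 lay within the methanol range. The log2 change was 0.22 (95% interval 0.02 to 0.43, limma adjusted p = 0.185).

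EXPA4 had values of 10.21, 10.42, 10.39 and 10.05 with TA, where replicates 1 and 4 were below every methanol array. Its log2 change was -0.23 (95% interval -0.458 to 0.004, limma adjusted p = 0.231). The 4 dim genes gave changes from -0.11 (EXPA9) to 0.01 (EXPA8), with EXPA7 at -0.10 and EXPA16 at -0.05. Their 95% intervals all lay between -0.34 (EXPA9) and 0.21 (EXPA8).

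With TA, then, 0 of the 7 genes were called higher and 1 lower, where 5.41% of all tested probe sets were called higher and 4.7% lower. The 4 TA arrays were above all methanol arrays for 0 members and below them for 1, against 7.45% and 8.57% of all probe sets. The members' changes had a median of -0.10, beside -0.01 over all probe sets. EXPB3 lost its call in an ordinary linear model, which does not share variance across probe sets (adjusted p = 0.0756). It kept it whichever array was left out, with log2 changes from -0.64 to -0.44.

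With IXB the member that moved was another one. EXPA15 rose 1.39-fold and was the 1 member called. Its values were 5.80, 5.52, 5.45 and 5.54 with IXB, against 5.26, 5.20, 4.89 and 5.08 with methanol. All 4 IXB arrays lay above all 4 methanol arrays, and replicate 1 was the highest of them. The log2 change was 0.47 (SE 0.10, 95% interval 0.26 to 0.69, limma adjusted p = 0.0266). An alternative fit that took the replicate numbers as pairs, which no label names, gave a limma adjusted p of 0.00761. In the unpaired fit the log2 change stayed between 0.40 and 0.52 over all arrays left out. The call was lost without methanol replicate 4 or IXB replicate 1, 2 or 4, at limma adjusted p from 0.0563 to 0.0732. It was also lost in an ordinary linear model (adjusted p = 0.138).

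EXPB3 showed no shared movement with IXB. Its values were 9.127, 9.003, 8.18 and 8.56 with IXB, against 8.80, 9.09, 8.57 and 8.78 with methanol. Replicate 1 stood above every methanol array and replicates 3 and 4 below every one. The SD was 0.43 with IXB and 0.22 with methanol, and the log2 change was -0.09 (95% interval -0.49 to 0.30, limma adjusted p = 0.849).

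EXPA4 was spread in the same order of arrays. It stood at 10.91, 10.75, 10.14 and 10.31 with IXB and at 10.47, 10.82, 10.55 and 10.49 with methanol. Replicate 1 was again above every methanol array and replicates 3 and 4 below every one. The log2 change of -0.05 had a 95% interval from -0.38 to 0.28 (limma adjusted p = 0.902).

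The dim genes EXPA8 and EXPA9 had raised means with IXB that did not pass the test. EXPA9 was at 2.85, 3.03, 2.77 and 2.78 with IXB and at 2.63, 2.61, 2.75 and 2.70 with methanol, so that its groups did not overlap, with the nearest arrays at 2.77 and 2.75. Its log2 change was 0.19 (95% interval 0.02 to 0.36, limma adjusted p = 0.236). EXPA8 was at 2.91, 3.15, 2.95 and 2.97 with IXB and at 2.71, 2.77, 2.99 and 2.69 with methanol, with overlap through methanol replicate 3. Its log2 change was 0.21 (95% interval 0.02 to 0.40, limma adjusted p = 0.243).

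The remaining dim genes had intervals that included 0. EXPA7 was at 3.31, 3.35, 3.34 and 3.61 with IXB and at 3.20, 3.37, 3.58 and 2.85 with methanol, so that 3 of the 4 IXB arrays lay within the methanol range. Its log2 change was 0.15 (95% interval -0.14 to 0.44, limma adjusted p = 0.619). EXPA16 was the least variable member here, with SDs of 0.07 with IXB and 0.04 with methanol and a log2 change of 0.07 (95% interval -0.08 to 0.21, limma adjusted p = 0.657).

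Of the 7 genes 1 was called higher with IXB and 0 lower, where 2.2% of all probe sets were called higher and 0.809% lower. The 4 IXB arrays lay above all methanol arrays for 2 members, EXPA9 and EXPA15, and below them for 0, against 5.35% and 6.24% of all probe sets. The median change of the members was 0.15, beside -0.01 over all probe sets.

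**Figure D2:**
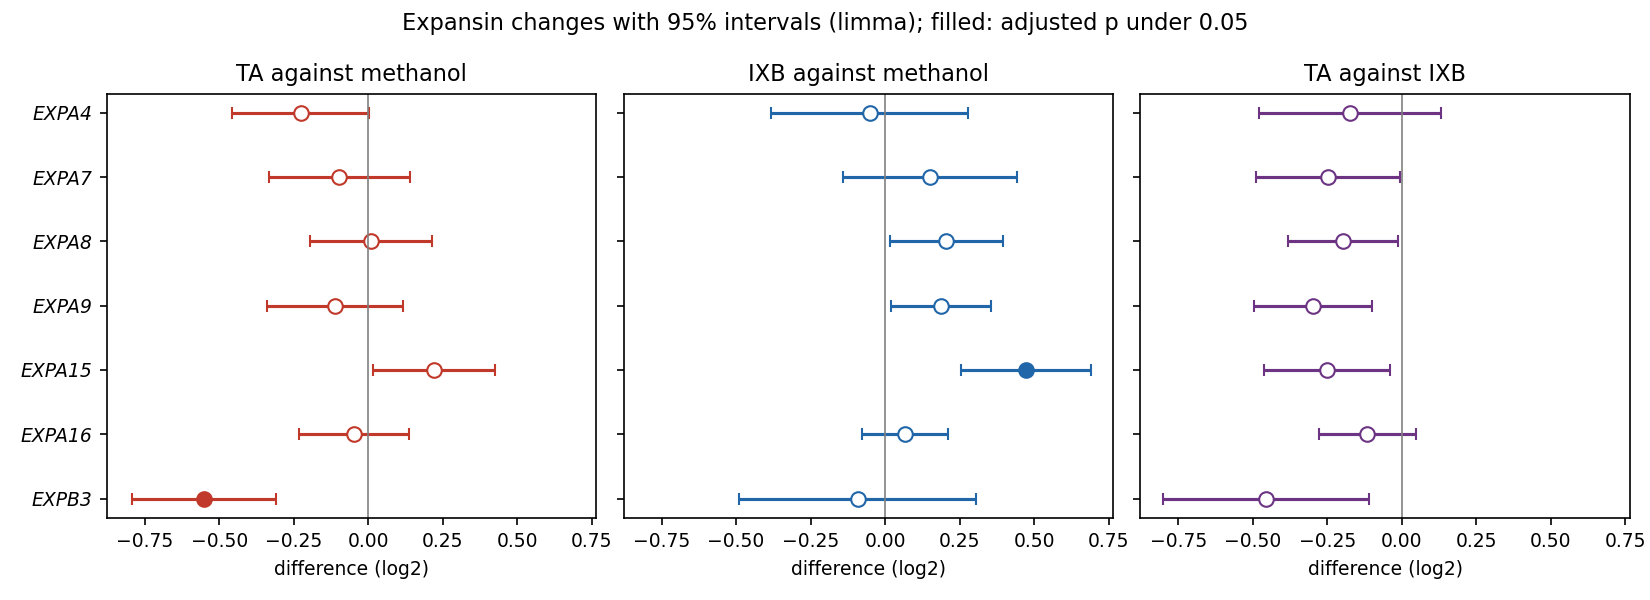
Log2 differences of the 7 genes with 95% intervals from limma for TA against methanol, IXB against methanol and TA against IXB; filled points have an adjusted p under 0.05. EXPB3 is filled with TA at -0.55 and EXPA15 with IXB at 0.47, and the TA against IXB panel has no filled point although all 7 points lie left of 0.

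That a gene passed with 1 compound and not with the other does not show that the compounds differ, so the difference between their changes was tested itself. Each column was taken relative to the methanol mean of its set, and the 2 processed versions of each methanol array entered as their mean, giving 12 arrays. None of the 7 genes passed, where 4.77% of all probe sets were called in either direction. An unadjusted limma p under 0.05 was found for 5 of the 7, a share that was 19.6% over all probe sets. All 7 were read from the same arrays and some varied together, as described below, so the 5 are not independent results.

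EXPB3 was 0.46 log2 units lower with TA than with IXB (TA minus IXB -0.46, 95% interval -0.80 to -0.11, limma adjusted p = 0.125). Its 4 TA arrays lay between -0.67 and -0.47 relative to methanol and its 4 IXB arrays between -0.63 and 0.32. With single arrays left out the difference ran from -0.64 to -0.32. It passed in 1 of these 12 fits, without IXB replicate 3, the one IXB array inside the TA range (limma adjusted p = 0.0158), and was smallest without IXB replicate 1 (adjusted p = 0.309). EXPA15 was raised in the mean by 0.22 with TA and by 0.47 with IXB, and the difference of -0.25 (95% interval -0.46 to -0.04) did not pass (limma adjusted p = 0.169). Its TA arrays ran from 0.04 to 0.46 and its IXB arrays from 0.35 to 0.70, so the groups overlapped.

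EXPA9 came nearest to the threshold, at -0.30 (95% interval -0.50 to -0.10, limma adjusted p = 0.0805). Its TA arrays, between -0.36 and 0.02, did not overlap with its IXB arrays, between 0.10 and 0.36. With single arrays left out its difference ran from -0.35 without methanol replicate 1, the 1 fit of 12 that passed (limma adjusted p = 0.0474), to -0.22 without TA replicate 4 (adjusted p = 0.174). The TA and IXB arrays of EXPA7 did not overlap either, with a difference of -0.25 (95% interval -0.49 to -0.01, limma adjusted p = 0.242). The TA arrays were thus below all IXB arrays for 2 members and above them for 0, against 5.5% and 6.08% of all probe sets. EXPA8 (-0.20), EXPA4 (-0.17) and EXPA16 (-0.12) completed a set in which every member had a lower mean with TA than with IXB. The median difference of the members was -0.25, beside -0.002 over all probe sets. For the 7 other EXPA and EXPB genes that were measured the median was -0.09, with a range from -0.13 to 0.07. The members without overlap, EXPA7 and EXPA9, were dim, as were EXPA8 and EXPA16. The TA and IXB means are taken relative to the same methanol arrays, which cancel in this difference except for their separate processing. That processing did not move all arrays alike. The versions of methanol replicate 4 were 2.763 and 2.852 for EXPA7, and those of replicate 2 were 2.92 and 3.374. For EXPA9 the versions of replicate 3 were 2.722 and 2.753, and those of replicate 1 were 2.308 and 2.63. The p-values take no account of this.

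The levels of EXPB3 and EXPA4 ran opposite, over arrays, to those of a group of genes known to rise when plant cells run short of oxygen. Of 25 such genes written, 10 were measured, and 9 rose with TA and 0 fell, with a median change of 1.45 beside -0.01 over all probe sets. With IXB 0 of the 10 passed, at a median of 0.52. CML38, a calmodulin-like protein, rose by 2.64 log2 units and AT5G66985 by 2.102 with TA. The mean of the 10 genes, relative to methanol, was 1.59, 1.12, 1.54 and 1.41 on TA replicates 1 to 4, all above the methanol range of -0.52 to 0.41. On IXB replicates 1 to 4 it was -0.59, 0.47, 0.92 and 0.94. The IXB arrays with the 2 highest low-oxygen means, replicates 3 and 4, were thus the arrays with the lowest EXPB3 and EXPA4, and the methanol array with the lowest mean, replicate 2, had the highest EXPB3 and EXPA4.

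Over the 8 methanol and IXB arrays, which leaves out TA, the low-oxygen mean and EXPA4 had a Pearson r of -0.83 (exact two-sided permutation p = 0.0122, Spearman rho = -0.76, exact p = 0.0368). For EXPB3 the Pearson r was -0.79 (exact two-sided permutation p = 0.0207, Spearman rho = -0.71, exact p = 0.0576). These p-values come from all 40320 orders of the 8 arrays, which takes no account of the 2 treatment groups or of any pairing by replicate number. Adjusted over the 7 members, neither passed, at an adjusted exact permutation p of 0.0724 for Pearson and 0.202 for Spearman in both. Within the 4 methanol arrays alone r was -0.84 for EXPA4 and -0.78 for EXPB3, and within the 4 IXB arrays -0.88 and -0.81, as descriptions of 4 points each. Without the 2 arrays farthest from the median low-oxygen mean, IXB replicate 1 and methanol replicate 2, r was -0.60 for EXPA4 and -0.55 for EXPB3. EXPA15 had an r of 0.04 over the same 8 arrays, but -0.41 within the methanol arrays and -0.94 within the IXB arrays. Among the 4 TA arrays, replicates 1 and 3 had the highest low-oxygen means (1.586 and 1.545) and also the highest EXPB3 relative to methanol (-0.489 and -0.472). EXPB3 thus did not run opposite to that mean within the TA group. EXPA4 was highest on TA replicate 2 (-0.071), where the low-oxygen mean was lowest (1.123). Its next highest value was on replicate 3 (-0.105), with a low-oxygen mean of 1.545. Its lowest was on replicate 4 (-0.448), with a mean of 1.414, so EXPA4 gave no clear order within the TA group either. The relation of EXPB3 and EXPA4 to the low-oxygen mean was looked for after these values had been seen.

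In a fit that held the low-oxygen mean as covariate, the log2 change of EXPB3 with TA was -0.08, its standard error rose from 0.11 to 0.29, and its call was lost (adjusted p = 0.999). Over all probe sets that fit called 1 lower and 96 higher with TA, in place of 1069 and 1230, so the loss is not particular to EXPB3. The difference between TA and IXB was then -0.03 for EXPB3, in place of -0.46, and -0.05 for EXPA15, in place of -0.25. For the dim genes it was -0.29 (EXPA7), -0.23 (EXPA8), -0.31 (EXPA9) and -0.16 (EXPA16), in place of -0.25, -0.20, -0.30 and -0.12. EXPA4 was at 0.23, in place of -0.175. Over all probe sets that comparison called 235 higher and 65 lower with the covariate, in place of 618 and 467. Because all TA arrays had a higher low-oxygen mean than all methanol arrays, TA and that mean can hardly be told apart in the fit of TA against methanol. The change of EXPA15 with IXB kept its call with the covariate, at 0.56 (adjusted p = 0.00436). Whether oxygen in the flasks had a part in any of these values was not tested.

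**Figure D3:**
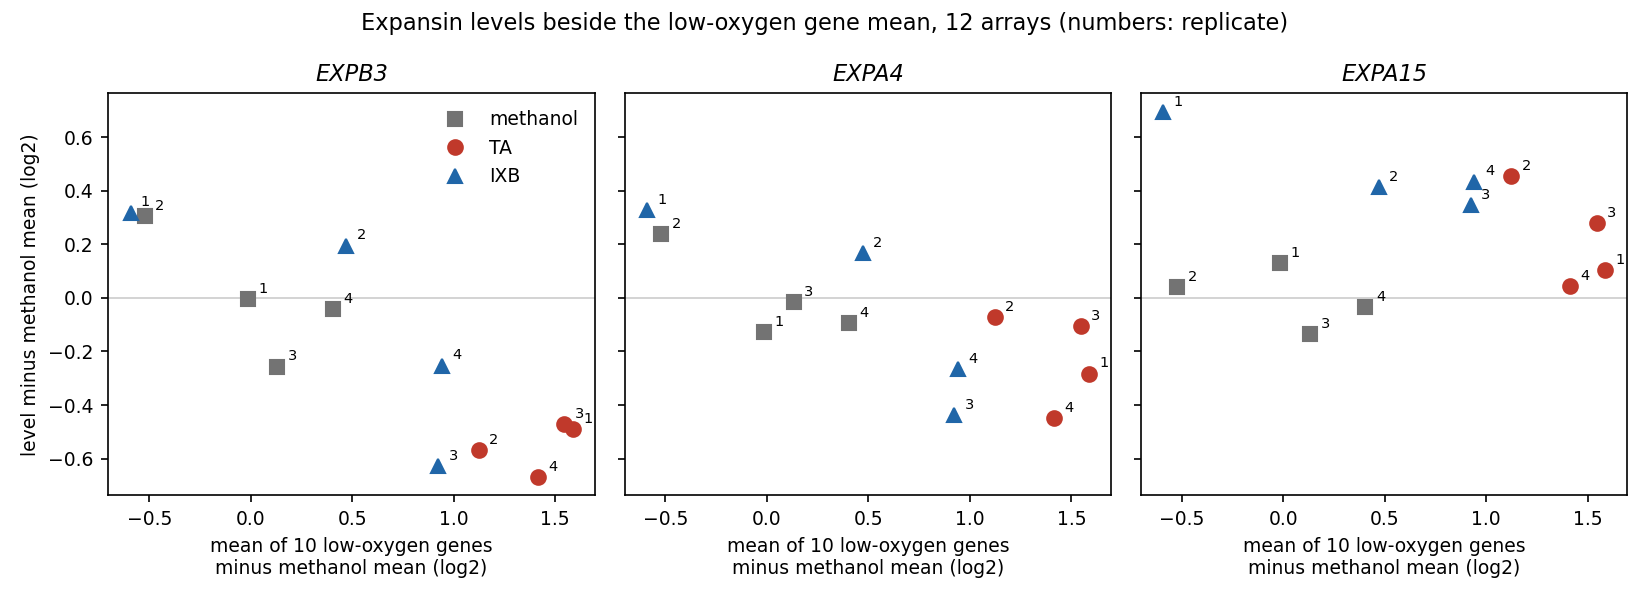
Level of EXPB3, EXPA4 and EXPA15 minus the methanol mean of the set, against the mean of 10 low-oxygen genes on the same scale, in log2 units on 12 arrays, with replicate numbers. For EXPB3 and EXPA4 the methanol and IXB arrays run from upper left to lower right (r = -0.79 and -0.83), and for EXPA15 they give no single line (r = 0.04).

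EXPA4 and EXPB3 also varied together. Over all 12 arrays their deviations from methanol had a Pearson r of 0.86, the highest of the 21 pairs of members, and that of EXPA7 and EXPA8 was 0.75. The lowest was 0.01, for EXPA4 and EXPA16. The 12 arrays come from 3 treatment groups of 4, which add to these values, and no test was made of them.

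For each gene, the 2 genes whose deviations were most alike over the 12 arrays were looked up among the 13355 other genes with a single-gene probe set. For EXPB3 they were AT3G49740 (Pearson r = 0.94) and AT2G33170 (0.92), which were -0.18 and -0.19 log2 units from methanol with TA. For EXPA15 they were GTR1, a glucosinolate transporter (0.88), and AT1G09460 (0.87), and the latter was 0.42 from methanol with IXB. For EXPA4 they were AT1G25570 (0.89) and GPT (0.88), for EXPA7 AT1G64370 (0.86) and AT1G47940 (0.86), and for EXPA8 AT3G47140 (0.94) and AT4G03370 (0.90). For EXPA9 they were AT1G09800 (0.93) and AT3G42540 (0.92), and for EXPA16 RR19, a response regulator (0.93), and AT5G10130 (0.88). Being the best of so many genes, such values are high for any gene.

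Among the rest of the superfamily, the movement lay in the expansin-like A genes. Of 34 family genes written, 18 were measured, 11 of them besides the 7. Of these 11, each compound raised 3 and lowered 0, and 8 did not pass. The 3 were EXLA1, EXLA2 and EXLA3, which lay 1.40, 1.77 and 2.04 log2 units above methanol with TA and 1.19, 1.43 and 1.41 with IXB. EXLA3 was the 1 gene of the 18 that differed between the compounds, by 0.63 (limma adjusted p = 0.00178).

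The 7 other EXPA and EXPB genes that were measured, EXPA18, EXPA20, EXPA21, EXPA24, EXPB1, EXPB2 and EXPB5, gave 0 calls with either compound, and 0 of them had an unadjusted limma p under 0.05. With TA their changes ran from -0.10 (EXPA21) to 0.13 (EXPB1), with a median of -0.04. With IXB they ran from -0.11 (EXPB2) to 0.15 (EXPA18), with a median of 0.03. Of these 7 EXPA20 alone was not dim, at 6.48 with methanol in the TA set. EXLB1 was 0.07 from methanol with TA and -0.01 with IXB.

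Among the xyloglucan endotransglucosylase/hydrolases (XTH), enzymes that cut and rejoin the xyloglucan on which expansins are thought to act, 9 of 33 genes were measured. With TA 4 rose and 0 fell, XTH18 by 3.49 and XTH19 by 1.72 log2 units. With IXB 3 rose and 0 fell, XTH18 by 2.47 and XTH19 by 1.25. The plasma membrane proton pumps (AHA), which acidify the wall and so bring expansins into action, are not analysed here. In the annotation used, 0 of their 11 genes had a probe set named for that gene alone.

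**Figure D4:**
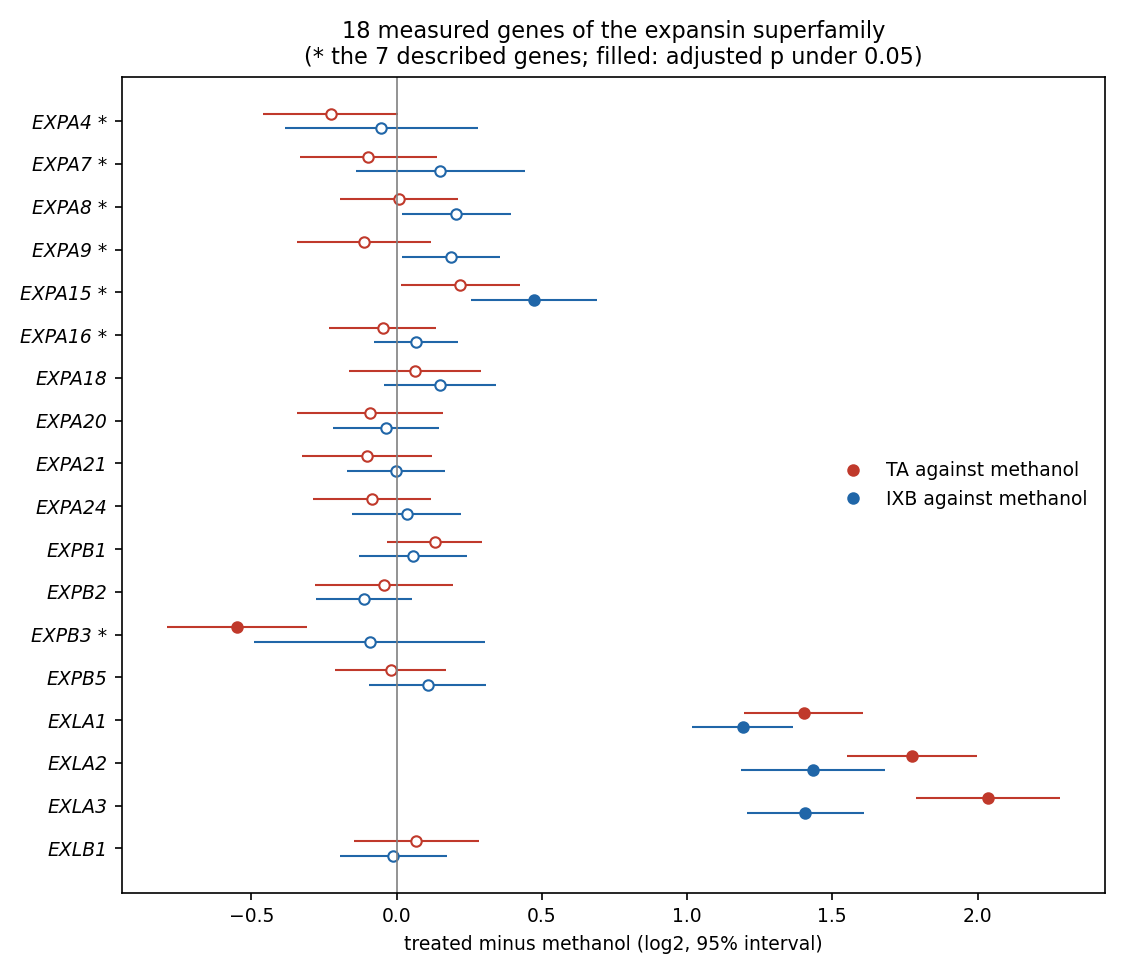
Treated minus methanol differences, in log2 units with 95% intervals, of the 18 measured expansin and expansin-like genes, for TA (upper point) and IXB (lower point); filled points have an adjusted p under 0.05. The EXLA1, EXLA2 and EXLA3 points lie between 1.19 and 2.04, and EXPB3 with TA (-0.55) and EXPA15 with IXB (0.47) are the only other filled points.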

How the data were processed

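Each of 12 RNA samples went onto 1 Affymetrix ATH1 array. The authors deposited log2 signals, and the submitters' processing notes name RMA as the method; settings and version are not given in the sources used here. RMA brings arrays to a common distribution, so a shift of all transcripts cannot be seen.

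Of 22810 probe sets, 64 controls were left out. No filter on low values was applied. Probe sets were named through the platform annotation and, by gene number, the TAIR10.1 gene table (names only); 8730 were unnamed here. R 4.3.3 and limma 3.58.1 (lmFit, eBayes, two-sided) were used on each set of 8 columns, with Benjamini-Hochberg adjustment over all 22746 probe sets and a threshold of 0.05. Intervals are 95% intervals of the fit, and the number of arrays limits their precision. The code was tested on simulated data. Figures were drawn with matplotlib 3.10.9.

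The 2 versions of a methanol array were matched by replicate number: with equal numbers, the deviations from the mean of the set had correlations of 0.807 to 0.873, and otherwise of at most 0.015. Same-numbered methanol and IXB arrays had deviations that correlated at 0.101 to 0.147, and differently numbered ones at -0.212 to 0.295. For methanol and TA these ranges were -0.063 to 0.295 and -0.21 to 0.159. The numbers were therefore not shown to be pairs, and no label names a shared culture. The main fits used no pairing, and the replicate number entered only in an alternative fit.

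The members, gene lists and tests were chosen with earlier results of these data known. All 7 members were named, called or not. The other measured genes of the expansin superfamily were named too, passed or not, as was the measured marker of green leaf cells. Further genes were named where they were among the 2 most like a member. From the other lists, at most 2 genes that passed with the most change were named. Alternatives covered the replicate block, variance model, array weights, dim probe sets, normalization, threshold, a low-oxygen covariate and single arrays left out.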

Additional observations from a re-analysis of the deposited data

Results flagged for a closer look

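In 3 of 28 groups of 4 arrays, 1 array stood far from the other 3, measured as its gap to the nearest array over the range of the group, where chance gives about 1 in 20 groups, or 1.4 of 28. EXPA7 was at 3.609 on IXB replicate 4, against 3.314 to 3.346 on the others. EXPA16 was at 2.845 on methanol replicate 4 of the TA set, against 2.638 to 2.659, and at 2.459 on TA replicate 1, against 2.699 to 2.732. The 28 groups hold the methanol arrays in both processings, so they are not all independent. In the IXB set the same methanol replicate 4 was at 3.219 for EXPA16, against 3.124 to 3.166, and was not flagged. Both genes were dim, and neither was called in any comparison.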

How the results depend on the processing

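Of 19 alternatives each, EXPB3 kept its call with TA in 17 and EXPA15 with IXB in 14. With TA the count of members called lower was 0 in place of 1 in an ordinary linear model and with the low-oxygen covariate, and it was 1 whichever array was left out. With IXB the count called higher was 0 in an ordinary linear model and at a threshold of 0.01, and 0 to 1 with single arrays left out. Between the compounds the count was 1 in place of 0 at a threshold of 0.1, and 0 to 1 with single arrays left out. With the replicate number as a block, EXPA15 with IXB had an adjusted p of 0.00761 and EXPB3 with TA of 0.00684 (limma), and no call of a member changed. Small changes that did not pass the test also turned sign. EXPA8 with TA was -0.006 after a second quantile normalization and -0.001 after median centring. With the low-oxygen covariate EXPA4 was 0.254 with TA, 0.132 with IXB and 0.23 between the compounds, and EXPB3 was 0.115 with IXB. With single arrays left out, the changes with TA ran from -0.159 to 0.004 for EXPA7, from -0.041 to 0.088 for EXPA8 and from -0.076 to 0.016 for EXPA16. Those with IXB ran from -0.179 to 0.076 for EXPA4 and from -0.229 to 0.086 for EXPB3. Except for the values already described, the cause of these shifts was not tested. A filter at a mean of 5 kept 2 members for TA and 3 for IXB, so the 4 dim genes limit what can be said of small changes.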
